A study of Mus musculus with 9 samples.

Results

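The genes described here encode ligands of the epidermal growth factor receptor (EGFR) in mouse skin, namely Ereg, Epgn, Areg, Hbegf, Tgfa and Btc, together with the receptor Egfr and its inhibitor Errfi1. Members were the probe sets that the array annotation gives to one of these 8 symbols. They came to 18 of the 45101 probe sets on the array and covered 7 of the 8 genes. The annotation gave no probe set to Areg, the gene of amphiregulin, so its signal was not analysed here. All 7 measured genes, passed the filter on low signals. The genes were selected on results of these data already known, of which the low Ereg signal in DNFB ears against vehicle ears was the one at hand. The Ereg values of DNFB ears are therefore given with no p-value, Ereg is left out of the counts of members called, and those counts are descriptions.

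Total RNA from ear skin of C57BL/6 mice was hybridised to 9 arrays, 3 for each treatment, 6 h after topical application. DNFB (dinitrofluorobenzene, a chemical allergen) and BAC (a skin irritant) were each put on the right ear. Vehicle, a mix of acetone and olive oil, was put on the left ear, so the effects of treatment and ear side cannot be told apart. The labels give no age or sex and do not say whether arrays of one treatment came from separate animals, so p-values may rest on technical spread alone.

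EGFR ligands are made as membrane-anchored precursors that metalloproteases such as ADAM17 release from the cell surface. Ligand binding lets EGFR pair with itself or with another ErbB receptor and switches on the Ras-ERK cascade, which in the epidermis drives keratinocyte proliferation, survival and migration. Errfi1 (also called Mig6) is induced by this signalling, binds the kinase domain of EGFR and dampens it.

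Epgn and Errfi1 were called higher in BAC ears than in vehicle ears, and Btc is a ligand called lower in DNFB ears than in vehicle ears. The 250 bases before their annotated starts are shown to set these members beside each other (RefSeq sequence, GRCm38.p6). Capitals mark a TATA box (TATAAA) or a cyclic AMP response element (TGACGTCA). The Epgn window lies on the plus strand at chr5:91027267-91027516, the Errfi1 window before its second annotated start on the plus strand at chr4:150854820-150855069, and the Btc window on the minus strand at chr5:91402995-91403244.
Epgn: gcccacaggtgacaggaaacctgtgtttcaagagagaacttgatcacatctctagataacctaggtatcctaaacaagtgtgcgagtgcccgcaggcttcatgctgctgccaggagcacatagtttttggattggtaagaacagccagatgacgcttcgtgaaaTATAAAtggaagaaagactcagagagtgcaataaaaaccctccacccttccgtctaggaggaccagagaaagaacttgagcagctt
Errfi1: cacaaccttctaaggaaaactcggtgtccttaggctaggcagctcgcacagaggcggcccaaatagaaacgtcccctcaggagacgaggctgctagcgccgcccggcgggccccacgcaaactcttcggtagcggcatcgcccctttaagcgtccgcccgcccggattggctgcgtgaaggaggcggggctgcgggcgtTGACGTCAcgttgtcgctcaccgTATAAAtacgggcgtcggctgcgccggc
Btc: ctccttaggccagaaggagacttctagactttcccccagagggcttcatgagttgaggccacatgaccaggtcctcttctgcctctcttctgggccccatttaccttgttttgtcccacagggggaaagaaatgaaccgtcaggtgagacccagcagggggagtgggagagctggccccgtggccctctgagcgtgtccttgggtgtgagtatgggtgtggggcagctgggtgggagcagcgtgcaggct

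The Epgn window held a TATA box 80 bases before the start. The Errfi1 window held a cyclic AMP response element 43 bases and a TATA box 22 bases before the start. The window before the first annotated Errfi1 start, which is not printed, and the Btc window held none of these. Of the other windows searched, also not printed, that of Areg held a cyclic AMP response element 53 bases and a TATA box 25 bases before the start. Those of Tgfa and Egfr held neither. Both strands were searched, also for the AP-1 site TGANTCA, which was in none of the 7 windows searched. These belonged to 6 of the 8 members, and no window of Ereg or Hbegf was searched. Of 32851 mouse promoter windows of the same length, 12.4% held TATAAA, 1.55% held TGACGTCA and 6.75% held TGANTCA. A match of letters is a description of these windows and no evidence that a factor binds there.

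Signals are the authors' MAS5 values, a linear measure of brightness for which each array was scaled to the same trimmed mean. Changes were computed as differences of log2(signal + 16) with their standard errors. A gene was called changed at a Benjamini-Hochberg adjusted p under 0.05 over all 14122 tested genes, in a limma model of all 9 arrays; "called" has that sense throughout. With 3 arrays against 3, an exact permutation test of one gene cannot go below p = 0.1. Each gene was read from its brightest probe set, and levels are not set against each other between genes.

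**Figure D1:**
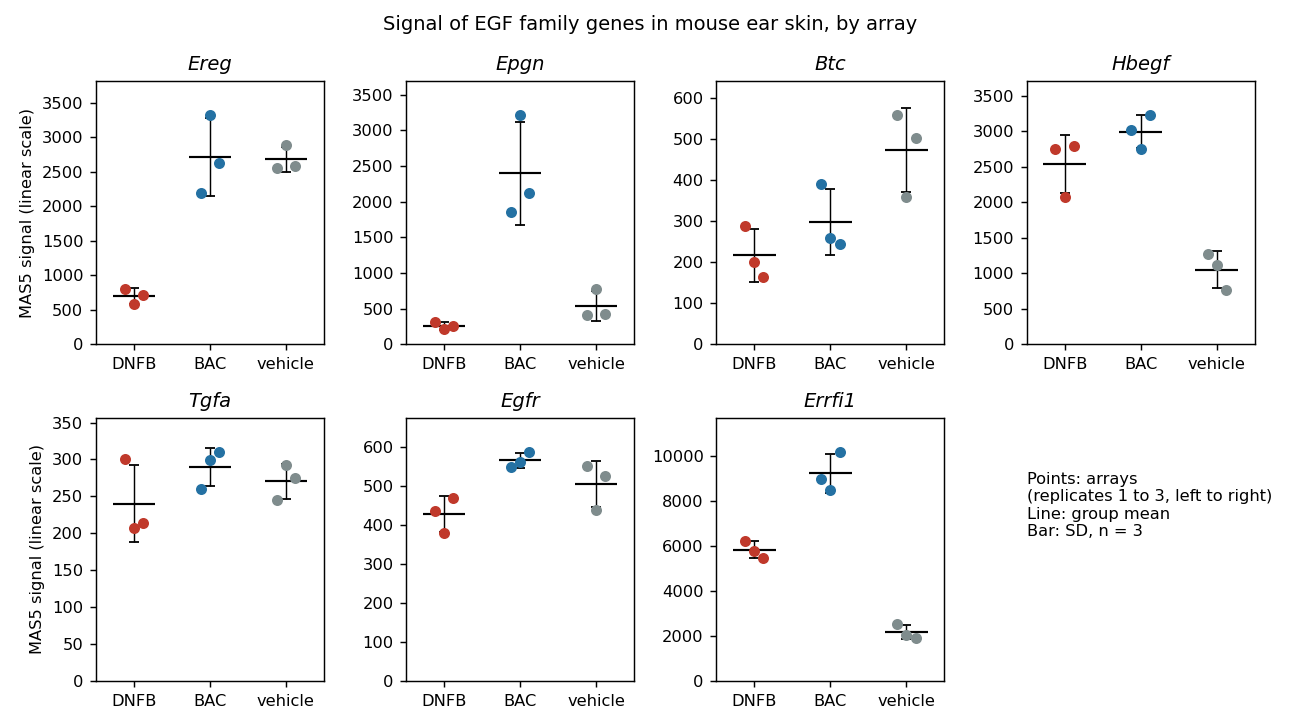
MAS5 signal (linear scale) of the 7 measured members on each array. Points are arrays, lines are group means and bars are SD (n = 3); the DNFB arrays of Ereg lie between 579 and 805, below every BAC and vehicle array, and the BAC arrays of Epgn lie between 1859 and 3212, above every other array.

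The ligands went different ways. Ereg was low in DNFB ears alone, Epgn was high in BAC ears and low in DNFB ears, Btc was lower in DNFB ears, Hbegf was higher after both compounds, and Tgfa gave no call.

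Ereg encodes epiregulin, a ligand of EGFR and ErbB4. Its probe set 1419431_at read 805, 579 and 710.1 in DNFB ears, 2193, 3319 and 2632 in BAC ears, and 2562, 2895 and 2581 in vehicle ears. The 3 DNFB arrays lay below all others, while the BAC and vehicle arrays overlapped. Means were 698 ± 114 in DNFB ears, 2715 ± 568 in BAC ears and 2679 ± 187 in vehicle ears (SD, n = 3 each). The DNFB mean was 3.8-fold below the vehicle mean and 3.8-fold below the BAC mean on the log2(signal + 16) scale, a difference of -1.93 ± 0.15 (SE) in both cases. Between BAC and vehicle ears the 95% interval of the log2 difference ran from -0.31 to 0.32 (limma adjusted p = 0.999).

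Epgn encodes epigen, a low-affinity EGFR ligand found in epithelia. Its probe set 1449994_at read 317, 207 and 257 in DNFB ears, 1859, 3212 and 2117 in BAC ears, and 409, 772 and 423 in vehicle ears. The 3 groups did not overlap. Epgn rose 4.45-fold in BAC ears against vehicle ears (log2 change 2.15 ± 0.24, limma adjusted p = 1.63e-05). It fell in DNFB ears against vehicle ears (log2 change -0.95 ± 0.24, limma adjusted p = 0.0133). The DNFB mean was 8.61-fold below the BAC mean (log2 difference -3.11 ± 0.24, limma adjusted p = 1.27e-06). The DNFB call against vehicle was lost without DNFB replicate 2 (limma adjusted p = 0.0663), without vehicle replicate 2 (limma adjusted p = 0.0513) and without the intensity trend of the model (limma adjusted p = 0.0846).

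Btc encodes betacellulin, a ligand of EGFR and ErbB4. Its brighter probe set 1435541_at read 289, 199 and 163 in DNFB ears, 390.1, 259 and 245 in BAC ears, and 558, 359 and 502 in vehicle ears. The DNFB arrays lay below the vehicle arrays, while the BAC arrays overlapped both. Btc fell in DNFB ears against vehicle ears (log2 change -1.08 ± 0.22, limma adjusted p = 0.00407). In BAC ears the log2 difference from vehicle was -0.65 ± 0.22 (95% interval -1.12 to -0.17, limma adjusted p = 0.0683). That difference passed the threshold under 5 of 19 alternative settings, among them without BAC replicate 1, where the log2 change was -0.85 (limma adjusted p = 0.027). Between DNFB and BAC ears the difference was -0.44 (95% interval -0.91 to 0.04, limma adjusted p = 0.279).

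The dimmer Btc probe set 1421161_at read 5.09, 23.9 and 45.2 in DNFB ears, 84.9, 76.6 and 74.7 in BAC ears, and 112, 101 and 179 in vehicle ears. The groups did not overlap, and all 3 DNFB arrays lay below the 40th percentile of their array, the floor used for testing. It passed the filter through the other groups, so no size is given for its difference in DNFB ears. In BAC against vehicle ears its log2 difference was -0.60 (limma adjusted p = 0.379).

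Hbegf encodes heparin-binding EGF-like growth factor, which keratinocytes release at wounds. Its brighter probe set 1418350_at read 2747, 2070.2 and 2797 in DNFB ears, 3014, 2747 and 3221 in BAC ears, and 1269, 1117 and 763 in vehicle ears. All 6 arrays of treated ears lay above the 3 vehicle arrays, and the DNFB and BAC arrays overlapped. Hbegf rose 2.43-fold in DNFB ears (log2 change 1.28 ± 0.16, limma adjusted p = 7.96e-05). It rose 2.88-fold in BAC ears (log2 change 1.53 ± 0.16, limma adjusted p = 1.37e-05). The difference between DNFB and BAC ears was -0.25, with a 95% interval of -0.60 to 0.10 (limma adjusted p = 0.414).

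The second Hbegf probe set, 1418349_at, read 1669, 1462 and 1634 in DNFB ears, 1722, 1692 and 1783 in BAC ears, and 483, 325 and 307 in vehicle ears. It gave larger log2 changes, 2.08 ± 0.15 in DNFB ears (limma adjusted p = 4.63e-07) and 2.20 ± 0.15 in BAC ears (limma adjusted p = 1.62e-07). Both probe sets thus placed the treated ears above the vehicle ears by different amounts.

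Tgfa encodes transforming growth factor alpha, an autocrine ligand of keratinocytes. Its brightest probe set 1421943_at read 299.9, 207 and 213 in DNFB ears, 261, 299.7 and 310.0 in BAC ears, and 244, 292 and 275 in vehicle ears. The 3 groups overlapped. The log2 difference from vehicle was -0.18 in DNFB ears (95% interval -0.53 to 0.18, limma adjusted p = 0.567) and 0.10 in BAC ears (95% interval -0.26 to 0.45, limma adjusted p = 0.76). The other Tgfa probe sets went opposite ways in DNFB ears, 1450421_at by -0.65 ± 0.22 (limma adjusted p = 0.0822) and 1421942_s_at by 0.61 ± 0.35 (limma adjusted p = 0.33), with no call.

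Egfr, the receptor of all these ligands, gave no call at the gene level. Probe set 1460420_a_at read 435, 378 and 469 in DNFB ears, 548, 561 and 586 in BAC ears, and 549, 438 and 524 in vehicle ears. The DNFB arrays lay below the BAC arrays, and both overlapped the vehicle arrays. The log2 difference from vehicle was -0.23 in DNFB ears (95% interval -0.51 to 0.05, limma adjusted p = 0.303) and 0.17 in BAC ears (95% interval -0.12 to 0.45, limma adjusted p = 0.453). The DNFB-to-BAC difference was -0.39 ± 0.13 (limma adjusted p = 0.0916).

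The annotation gives 7 probe sets to Egfr, of which 6 passed the filter on low signals. One of them, 1451530_at, read 214, 191 and 163 in DNFB ears, 215, 298 and 304 in BAC ears, and 141, 165 and 175 in vehicle ears. It rose in BAC ears against vehicle ears (log2 change 0.70 ± 0.19, limma adjusted p = 0.0276). The other 5 tested Egfr probe sets gave no call in any comparison, so the BAC call rests on a single probe set.

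**Figure D2:**
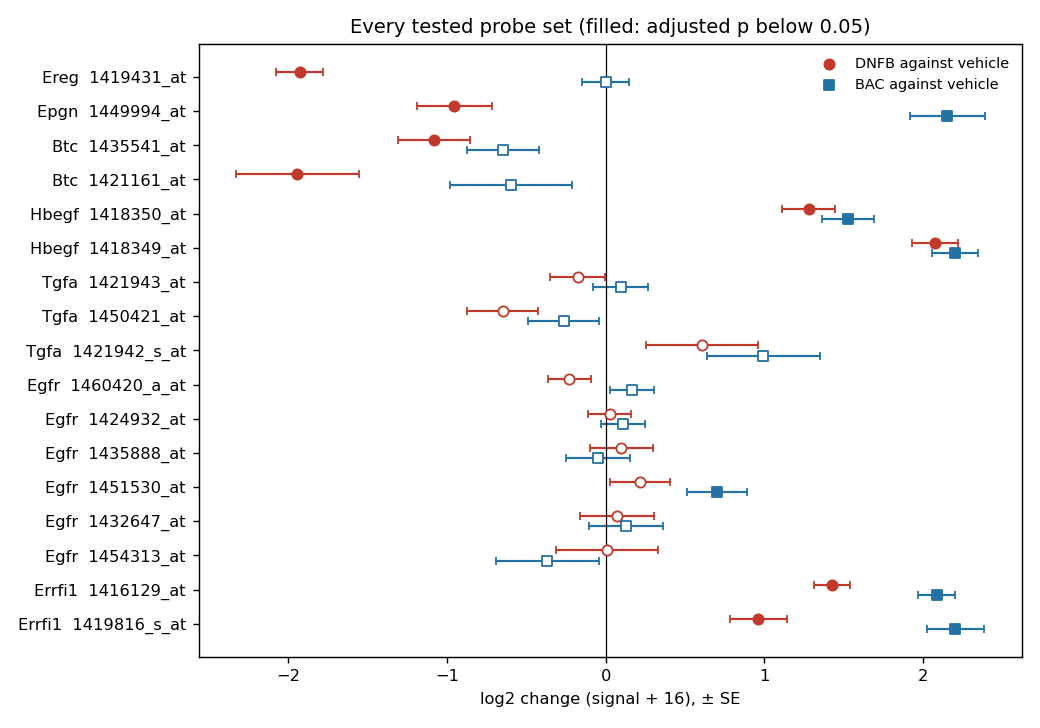
Log2 change of each of the 17 tested member probe sets in DNFB and in BAC ears against vehicle ears. Points are estimates from the fit over probe sets and bars are SE; both Hbegf and both Errfi1 probe sets lie above 0 after each compound, while the Tgfa and Egfr probe sets scatter around 0. The DNFB value of the dimmer Btc probe set rests on arrays below the 40th percentile, and nothing is read from the DNFB value of Ereg, which chose the genes.

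Errfi1, the inhibitor, rose after both compounds, and further in BAC ears than in DNFB ears. Probe set 1416129_at read 6241, 5807 and 5474 in DNFB ears, 9004, 8527 and 10196 in BAC ears, and 2530.2, 2065 and 1926 in vehicle ears. The 3 groups did not overlap, with BAC ears highest and vehicle ears lowest. Errfi1 rose 2.69-fold in DNFB ears (log2 change 1.43 ± 0.11, limma adjusted p = 8.86e-07) and 4.24-fold in BAC ears (log2 change 2.09 ± 0.11, limma adjusted p = 1.61e-08). It was lower in DNFB ears than in BAC ears by a log2 difference of -0.66 ± 0.11 (limma adjusted p = 0.00252).

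The second Errfi1 probe set, 1419816_s_at, read 3201, 3107 and 2147 in DNFB ears, 6908, 6891 and 5995 in BAC ears, and 1874, 1056 and 1436 in vehicle ears. Its groups kept the same order without overlap. Its log2 changes were 0.96 ± 0.18 in DNFB ears (limma adjusted p = 0.00269) and 2.20 ± 0.18 in BAC ears (limma adjusted p = 1.03e-06), and its DNFB-to-BAC difference was -1.24 ± 0.18 (limma adjusted p = 0.00073).

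Leaving out Ereg, 2 of the other 6 measured members were called higher in DNFB against vehicle ears (Hbegf and Errfi1) and 2 lower (Epgn and Btc), beside 6.76% of all tested genes called higher and 7.08% called lower, 13.8% together. The choice of genes used this contrast, and nothing is read from that count. In BAC against vehicle ears, 3 of the 6 were called higher (Epgn, Hbegf and Errfi1), beside 6.59% of all tested genes called higher and 7.64% called lower. Of all genes called in that comparison 46.3% were higher, and 34% with each array centred on its median. No member was called lower by limma, and 1 (Btc) was lower at an unadjusted p under 0.05. In DNFB against BAC ears, 2 of the 6 were called lower (Epgn and Errfi1), beside 3.66% of all tested genes called lower and 3.14% called higher. That comparison uses the same DNFB arrays that chose the genes, and nothing is read from its count either. The median log2 change of the 6 was -0.20 in DNFB ears, 0.85 in BAC ears and -0.42 between DNFB and BAC ears, while the medians of all tested genes were 0.00223, -0.0315 and 0.0289 in the same order. The comparisons share arrays, so they are not independent of each other. Over the 16 tested probe sets other than that of Ereg, 7 were called in DNFB against vehicle ears, the dimmer Btc one among them (10.4% of all), 6 in BAC against vehicle ears (10.2%) and 3 in DNFB against BAC ears (4.89%).

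**Figure D3:**
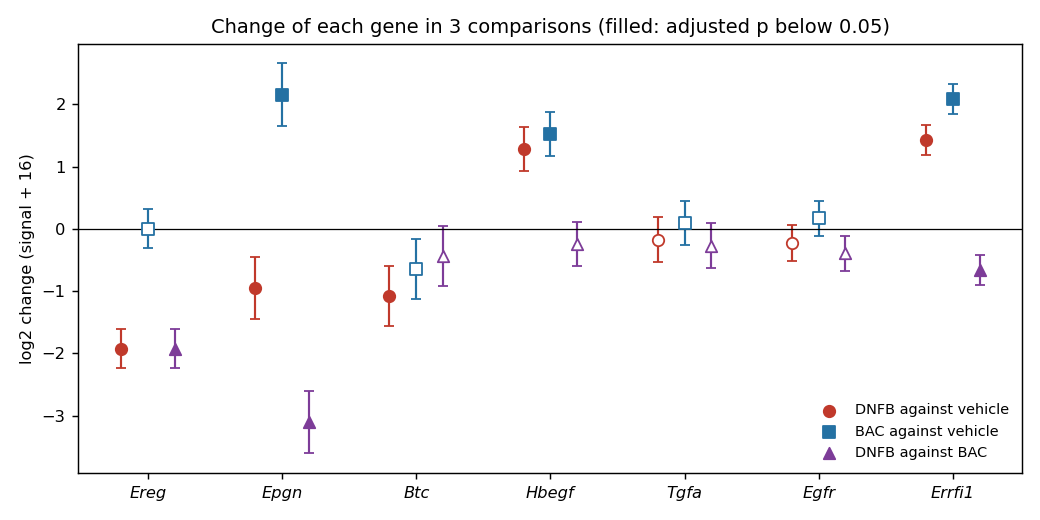
Log2 change of each measured member in the 3 comparisons, DNFB against vehicle, BAC against vehicle and DNFB against BAC ears. Points are estimates with 95% intervals, filled where the limma adjusted p is under 0.05 over all tested genes. Ereg is filled in both comparisons that use DNFB ears, whose Ereg values chose the genes, and nothing is read from that. Errfi1 and Hbegf lie above 0 in both comparisons with vehicle, and Epgn lies at -0.95 in DNFB ears and at 2.15 in BAC ears.

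Markers of several cell types moved in the same arrays. All 8 basal keratinocyte markers, among them Krt5, Krt14 and Trp63, were above the 40th percentile on all 9 arrays, and none was at 0. They summed to 23610 to 27169 signal units in DNFB ears, 27682 to 32954 in BAC ears and 35115 to 35582 in vehicle ears. Of the 8, 5 were called lower in DNFB ears (median log2 change -0.43), beside 7.08% of all tested genes. In BAC ears 3 were called lower (median -0.25), beside 7.64% of all tested genes. Krt14 gave no call against vehicle, and Krt5 and Trp63 were called lower in DNFB ears only. Of 8 suprabasal keratinocyte markers tested, 4 were called lower in DNFB ears and 4 in BAC ears, beside the same shares of all tested genes. The 8 measured neutrophil markers of 10 listed summed to 11596 to 21820 units in DNFB ears, 21180 to 29780 in BAC ears and 1549.8 to 6207 in vehicle ears, with none at 0. Of these, 7 were called higher in DNFB ears and 8 in BAC ears, beside 6.76% and 6.59% of all tested genes. Such sums weigh the brightest markers most, here S100a8 and S100a9 (means of 6587 and 6493 units in DNFB ears). The 8 Langerhans and dendritic cell markers summed to 8019 to 9142 units in DNFB ears, 10744 to 12967 in BAC ears and 9200.2 to 10178 in vehicle ears, with none at 0. Of 7 tested, 3 were called lower in DNFB ears, beside 7.08% of all tested genes. In BAC ears 4 were called higher and 1 lower, beside 6.59% and 7.64% of all tested genes. Like Epgn, Cd207 (langerin) lay below vehicle in DNFB ears (log2 change -0.93 ± 0.21, limma adjusted p = 0.0066) and above it in BAC ears (1.04 ± 0.21, limma adjusted p = 0.00311). Cd83, a marker of mature dendritic cells, did so too (-0.86 ± 0.16, limma adjusted p = 0.00205, and 1.82 ± 0.16, limma adjusted p = 1.69e-06). The other tested markers of this list did not. Epcam was called lower in DNFB ears (-0.84, limma adjusted p = 0.00056) and in BAC ears (-0.48, limma adjusted p = 0.0258). Itgax, Flt3, Cd209a and H2-Aa gave no call in DNFB ears. H2-Aa, with a mean of 6350 units in DNFB ears, made up most of the sum of this list there. Of 10 skeletal muscle markers, 5 were called higher in DNFB ears, beside 6.76% of all tested genes. The part of these cell types in the changes of the ligands, Egfr and Errfi1 was not tested, and in whole ear skin fewer cells of a type and less RNA per cell cannot be told apart. The 3' to 5' ratio of Gapdh, which reflects RNA integrity, was 0.841, 1.36 and 0.943 in DNFB ears, 0.917 to 0.932 in BAC ears and 0.856 to 0.88 in vehicle ears. The actin ratio was 1.09, 1.28 and 1.23 in DNFB ears, 1.18 to 1.22 in BAC ears and 1.05 to 1.10 in vehicle ears, so the BAC arrays lay above the vehicle arrays. The part of RNA integrity in the changes was not tested beyond leaving out an array. Without DNFB replicate 2, the array at 1.36, the log2 change in DNFB ears was -1.80 for Ereg, -1.04 for Btc, 1.42 for Hbegf and 1.43 for Errfi1. Epgn lost its call in DNFB ears without that array, as given above.

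Other genes around the receptor were read from lists of the pathway. Of 8 further ErbB ligands and receptors, 5 passed the filter, and none was called in DNFB against vehicle ears or in DNFB against BAC ears by limma (at an unadjusted p under 0.05, 2 and 1 were lower). In BAC ears 1 of 5 was called, a share of 20% beside 14.2% of all tested genes. It was Erbb3, the kinase-impaired partner of other ErbB receptors, and it fell by 0.52 on the log2 scale (limma adjusted p = 0.0109). That call was lost without BAC replicate 2, without vehicle replicate 3 and with the mean of the gene's probe sets. Erbb4, a receptor that also binds Ereg, Btc and Hbegf proteins, read between 1.11 and 7.01 on all 9 arrays and was not tested.

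Among 12 genes of ligand shedding, 2 were called higher and 1 lower in DNFB ears, and 3 higher and 1 lower in BAC ears, beside 13.8% and 14.2% of all genes called. Adam8, a metalloprotease of leukocytes and other cells, rose in DNFB ears (log2 change 0.78 ± 0.15, limma adjusted p = 0.003) and in BAC ears (1.24 ± 0.15, limma adjusted p = 5.69e-05). Rhbdl2, an intramembrane protease that can cleave EGF, read 108, 127 and 133 in DNFB ears, 195, 197 and 169.9 in BAC ears, and 286, 251 and 355 in vehicle ears. Its 3 groups did not overlap. Rhbdl2 fell in DNFB ears (log2 change -1.17 ± 0.18, limma adjusted p = 0.000368) and in BAC ears (-0.61 ± 0.18, limma adjusted p = 0.0319). Adam17, which sheds most of these ligands, had log2 differences from vehicle of -0.06 in DNFB ears (limma adjusted p = 0.823) and 0.00 in BAC ears (limma adjusted p = 0.988). Timp3, an inhibitor of ADAM17, rose by 0.47 in DNFB ears (limma adjusted p = 0.0173) and by 0.41 in BAC ears (limma adjusted p = 0.0372), calls lost in 7 and 10 of 19 alternatives. Adam9 rose by 0.37 in BAC ears (limma adjusted p = 0.0316), a call lost in 6. The list's BAC count of 4 ranged from 1 to 4 over the alternatives, and Rhbdl2 lost its BAC call when any BAC array was left out. Between DNFB and BAC ears limma called none of the 12, and 4 were lower at an unadjusted p under 0.05.

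Of 21 receptor adaptors and members of the Ras-ERK cascade, 16 were measured and tested. None was called in DNFB against vehicle ears by limma, where 3 were lower at an unadjusted p under 0.05. In BAC ears 1 was higher and 3 were lower (Map2k2, Gab1 and Plcg1, log2 changes of -0.58, -0.50 and -0.43), together 25% of the list beside 14.2% of all tested genes. The higher one was Stat3, a transcription factor activated by cytokine and growth factor receptors (log2 change 0.72 ± 0.12, limma adjusted p = 0.00101). Over the alternatives the BAC count of 4 ranged from 1 to 4. Gab1 lost its call in 13 of 19 alternatives, without any single BAC array among them, and Plcg1 in 11, with a log2 change of -0.51 to 0.03 over the alternatives. Stat3 kept its call in all 19.

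Among other feedback inhibitors of receptor signalling, Spry1 fell in DNFB ears and rose in BAC ears, while Dusp5 and Dusp6 rose in BAC ears. Of 17 tested, 3 were called higher and 1 lower in DNFB against vehicle ears, and 7 higher and 1 lower in BAC against vehicle ears (medians -0.14 and 0.09). These were 23.5% and 47.1% of the list, beside 13.8% and 14.2% of all tested genes. Between DNFB and BAC ears 1 was called higher and 3 lower, together 23.5% of the list beside 6.8% of all tested genes. Spry1, a Sprouty inhibitor of Ras-ERK signalling, read 581, 548 and 514 in DNFB ears, 1433, 1264 and 1341 in BAC ears, and 985, 790.1 and 804 in vehicle ears. Its 3 groups did not overlap, and it lay below vehicle in DNFB ears and above it in BAC ears. Spry1 fell by 0.63 on the log2 scale in DNFB ears (limma adjusted p = 0.00212) and rose by 0.64 in BAC ears (limma adjusted p = 0.00188), and its DNFB-to-BAC difference was -1.27 ± 0.12 (limma adjusted p = 8.98e-06).

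Dusp6, a phosphatase that inactivates ERK, read 676, 612 and 633 in DNFB ears, 1589.9, 1759.9 and 1776 in BAC ears, and 964, 884 and 670.0 in vehicle ears. The BAC arrays lay above all others. Dusp6 rose in BAC ears (log2 change 1.03 ± 0.13, limma adjusted p = 7.34e-05) and was lower in DNFB than in BAC ears (-1.39 ± 0.13, limma adjusted p = 9.32e-06), while its difference between DNFB and vehicle ears was -0.37 (limma adjusted p = 0.0806). Dusp5, a nuclear ERK phosphatase, rose by 1.61 ± 0.15 in BAC ears (limma adjusted p = 4.01e-06), and its DNFB-to-BAC difference was -1.37 ± 0.15 (limma adjusted p = 5e-05). Lrig3, a transmembrane protein of the family that holds the EGFR inhibitor Lrig1, fell in BAC ears (log2 change -0.98 ± 0.14, limma adjusted p = 0.000274). The DNFB count of 4 ranged from 1 to 5 over the alternatives, at 1 or 2 without DNFB replicate 1, without DNFB replicate 2 or without vehicle replicate 2. The calls of Socs5, Spry2 and Spred1 in DNFB ears were among those lost, and the Spry1, Dusp5 and Dusp6 calls named here were kept in all 19.

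**Figure D4:**
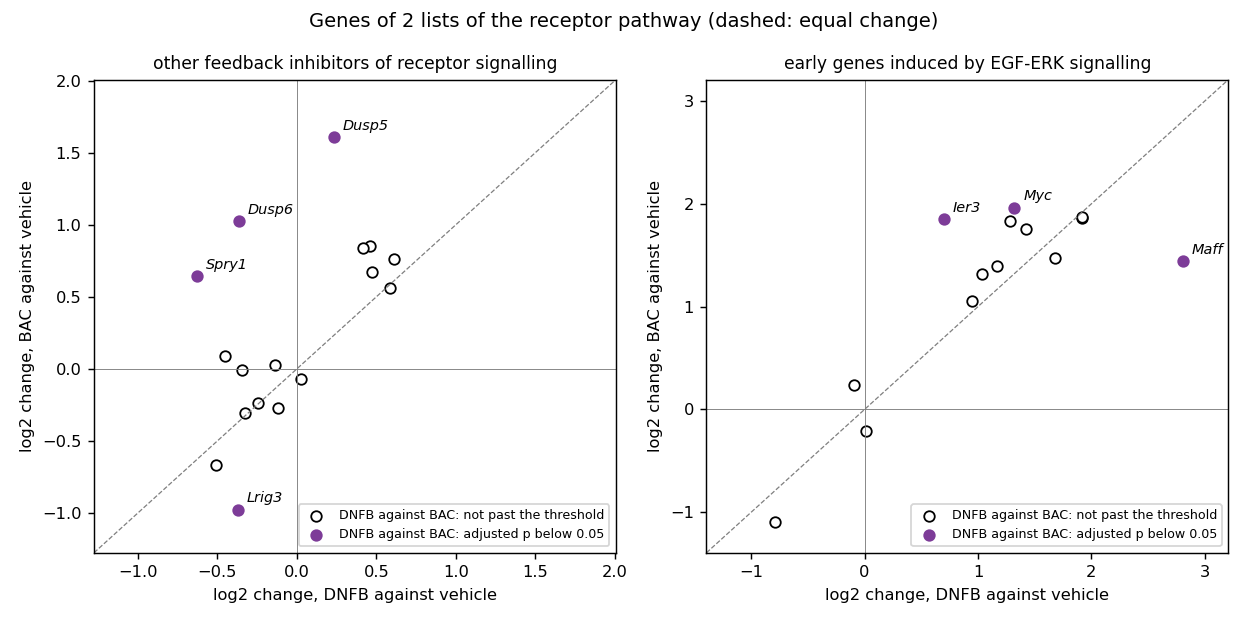
Log2 change in DNFB against vehicle ears (x axis) and in BAC against vehicle ears (y axis) of the tested feedback inhibitors and of early genes induced by EGF-ERK signalling. Points are genes, purple where DNFB and BAC ears differ at a limma adjusted p under 0.05; both axes share the vehicle arrays, and Spry1 lies at -0.63 and 0.64.

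Most of the listed early genes that EGF-ERK signalling induces, and that many other stimuli induce too, rose after both compounds. Like the other lists, this one was drawn up with earlier results of these data known. Of 14 tested, 11 were called higher in DNFB ears (78.6% of the list beside 6.76% of all tested genes called higher) and 11 in BAC ears (beside 6.59%), with medians of 1.23 and 1.46. None was called lower by limma, and 1, Etv4, was lower at an unadjusted p under 0.05 in BAC ears. The BAC arrays of Etv4 all read below the 40th percentile of their array. Maff, a small MAF transcription factor, read 3967, 3092 and 3491 in DNFB ears, 1434, 1207 and 1408 in BAC ears, and 499, 526 and 437 in vehicle ears. Its order was the reverse of that of Errfi1 between the compounds, with DNFB ears above BAC ears (log2 difference 1.37 ± 0.12, limma adjusted p = 5.87e-06). Ier3, an early survival gene, was lower in DNFB than in BAC ears (-1.15 ± 0.13, limma adjusted p = 5.22e-05). Egr1, a zinc finger factor, rose by 1.92 ± 0.12 in DNFB ears (limma adjusted p = 6.43e-08) and by 1.86 ± 0.12 in BAC ears (limma adjusted p = 7e-08).

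In the mouse genome Epgn, Ereg, Areg and Btc lie close together on chromosome 5, near the neutrophil-attracting chemokines Cxcl1, Cxcl2 and Cxcl3. In the RefSeq gene order the tested genes run Pf4, Cxcl3, Cxcl1, Cxcl2, Mthfd2l, Epgn, Ereg, Btc, Parm1, Rchy1, Cdkl2 and G3bp2. All 3 tested ligands of this stretch lay below vehicle in DNFB ears, the contrast used to choose the genes. They parted in BAC ears, where Epgn was called higher and Ereg and Btc gave no call, as given above. Cxcl1 rose in DNFB ears (log2 change 2.44 ± 0.25, limma adjusted p = 9.63e-06) and in BAC ears (3.40 ± 0.25, limma adjusted p = 2.46e-07), and Cxcl2 likewise (2.23 ± 0.34, limma adjusted p = 0.000396, and 3.79 ± 0.34, limma adjusted p = 2.23e-06).

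Cxcl3 read 55.6, 57.6 and 75.5 in DNFB ears, 267, 468 and 354 in BAC ears, and 19.9, 14.5 and 35.6 in vehicle ears. Like Epgn it was lower in DNFB than in BAC ears (-2.24 ± 0.29, limma adjusted p = 0.000196), but the arrays of both compounds lay above the vehicle arrays. All 3 vehicle arrays read below the 40th percentile of their array, so no size is given for its differences from vehicle. Mthfd2l, a mitochondrial folate enzyme that lies between Cxcl2 and Epgn, differed from vehicle by -0.47 in DNFB ears (limma adjusted p = 0.23) and by -0.33 in BAC ears (limma adjusted p = 0.406). On the far side of Btc, Parm1, Rchy1 and Cdkl2 gave no call against vehicle. G3bp2, a stress granule protein, fell by 0.60 in DNFB ears (limma adjusted p = 0.0195) and by 0.69 in BAC ears (limma adjusted p = 0.00859). The G3bp2 call in DNFB ears was lost in 6 of 19 alternatives.

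**Figure D5:**
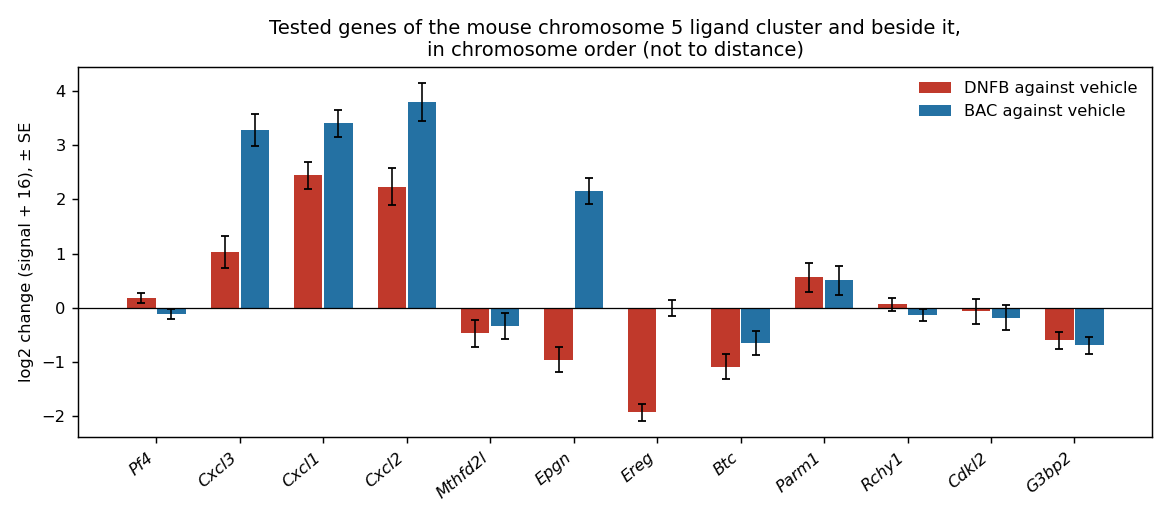
Log2 change in DNFB and in BAC ears against vehicle ears of the 12 tested genes around the ligand cluster, in their order on mouse chromosome 5. Bars start at 0 and thin lines are SE. Epgn lies below 0 in DNFB ears and above 0 in BAC ears. It stands between Mthfd2l, which gave no call, and Ereg, which is low in DNFB ears only. Both Cxcl3 bars rest on vehicle arrays below the 40th percentile, and no size is read from them.

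The genes most like each member were found by Pearson's r of log2 signals over the 9 arrays. With 3 treatments of 3 arrays, r mostly reflects the group means, and no p is given for r or for genes picked by it, whose group order the choice fixes. Dok1, an adaptor that restrains kinase signalling, and Slc15a1, a peptide transporter, were most like Ereg (r = 0.977 for each). Dok1 read 536, 523 and 503 in DNFB ears, 777, 805 and 767 in BAC ears, and 794, 797 and 717 in vehicle ears. As for Ereg, the DNFB arrays of Dok1 lay below all others and the BAC arrays overlapped vehicle, at a smaller size (log2 difference -0.55 between DNFB and vehicle ears).

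Slc10a6, a transporter of sulfated steroids, was most like Epgn (r = 0.99), followed by Il7r, the interleukin 7 receptor (r = 0.984). Slc10a6 read 757, 734 and 741 in DNFB ears, 2096, 2578 and 2149 in BAC ears, and 1008, 1169.5 and 859 in vehicle ears. Its groups did not overlap, and the log2 difference between BAC and vehicle ears was 1.16, against 2.15 for Epgn. Il6, a cytokine of acute inflammation, and Zfp36, a factor that promotes decay of cytokine mRNAs, were most like Errfi1 (r = 0.992 for each). Il6 read 2842, 2058 and 1753 in DNFB ears, 4834, 5498 and 5488 in BAC ears, and 157, 133 and 70.5 in vehicle ears. The 3 groups of Il6 did not overlap, and the treated ears stood further above vehicle than for Errfi1 (log2 differences of 4.07 in DNFB ears and 5.34 in BAC ears).

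Sirpb1a, a receptor of myeloid cells, and 4932438H23Rik were most like Hbegf (r = 0.987 and 0.979). Sirpb1a read 176, 95.1 and 169 in DNFB ears, 203, 196 and 280.0 in BAC ears, and 62, 35.8 and 19 in vehicle ears, 2 of these 3 below the 40th percentile. The vehicle arrays of 4932438H23Rik, at 42.4, 37.4 and 27.9, all lay below that percentile. Klf4, a transcription factor of epidermal differentiation, and Pcnx3 were most like Btc (r = 0.958 and 0.956). The log2 difference of Klf4 between DNFB and vehicle ears was -0.33. For Tgfa they were Traf4 and Ndfip2 (r = 0.964 and 0.954), and for Egfr Ralb and Rell1 (r = 0.948 and 0.944).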

How the data were processed

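The deposited values are signal intensity values, 1 per probe set and array, made with MAS5 in Affymetrix Expression Console per the submitters' processing notes; no source used here gives the versions. Each array had a trimmed mean of 250.001 with 2% of values cut at each end, and none duplicated another. Probe sets took their gene from the platform annotation given for this work: 34945 had 1 gene, 932 had several, 9160 are unnamed here and 64 were controls.

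From these intensities, log2(signal + 16) was fitted in limma 3.58.1 (R 4.3.3) with 1 mean per treatment, all 9 arrays and eBayes with an intensity trend, on 6 residual degrees of freedom and 9.09 prior ones. Each gene was read from its brightest probe set by mean log2 value and tested when above the 40th percentile of its array in at least 3 arrays. Tests were two-sided, with Benjamini-Hochberg adjustment over all tested genes, and the fit was tested on simulated data. A second fit covered all 29330 tested probe sets with 1 gene or unnamed.

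The genes described and all lists were chosen with earlier results of these data known. Named were all members, up to 4 called genes per pathway list and comparison with the largest change, the 2 genes most correlated with each member, and 6 protein-coding genes on each side of the ligand cluster. Alternatives were other pseudocounts, filters, scalings and probe set rules, no intensity trend, only the arrays compared, a replicate block and leaving out each array. Depth has no counterpart here; the number of arrays limits the precision. Arrays of one group correlated at 0.935 to 0.966 over probe sets, and arrays of different groups at 0.925 to 0.948.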

Additional observations from a re-analysis of the deposited data

How the results depend on the processing

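The counts of members, of all genes and of pathway list genes, and each member's change from its brightest probe set, were recomputed under 19 alternatives, and no called member changed direction. Cell type marker counts and the fit over all probe sets were not. Leaving out Ereg, the only member calls that changed were those of Epgn and Btc. Epgn lost its call in DNFB against vehicle ears in 3 of the 19 alternatives. Btc gained a call in BAC against vehicle ears in 5 and in DNFB against BAC ears in 1. Over all genes, 1955 were called in DNFB against vehicle ears but 1202 without the intensity trend, and 1249 to 1929 with 1 array left out; the lowest counts came without vehicle replicate 3 (1249) and without vehicle replicate 1 (1276). In BAC against vehicle ears 2009 were called, and 1225 (without vehicle replicate 1) to 2148 with 1 array left out. In DNFB against BAC ears 961 were called, 402 without the intensity trend and 513 to 999 with 1 array left out, the lowest counts coming without BAC replicate 2 (513), without DNFB replicate 3 (571) and without DNFB replicate 2 (608). The cause was not tested. Centring each array on its median moved the share of higher genes among those called in BAC against vehicle ears from 46.3% to 34%, with the median of all genes at -0.117 in that comparison and at 0.102 in DNFB against BAC ears. Btc was also called lower in BAC ears with that centring (log2 change -0.73, limma adjusted p = 0.0283). The same call came without DNFB replicate 1 (limma adjusted p = 0.0442) and without vehicle replicate 2 (-0.83, limma adjusted p = 0.0349). With the mean of its probe sets Btc was called lower in DNFB than in BAC ears. That mean takes in the dimmer probe set, whose DNFB arrays all lay below the 40th percentile, so no size is given.

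Arrays of different groups that share a replicate number had r of deviations between -0.122 and 0.153. Those with different numbers had r between -0.163 and 0.119. The 2 ranges overlap, so this check cannot tell whether the number marks shared animals, and the arrays were treated as unpaired. With a replicate block, Btc gained a call in BAC against vehicle ears (limma adjusted p = 0.0209). Among members other than Ereg, no other call changed with that block. Of all genes, 1874 were called in DNFB against vehicle ears, 1939 in BAC against vehicle ears and 860 in DNFB against BAC ears.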
